A study of Homo sapiens with 8 samples.

Results

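Integrins are the receptors by which cells hold on to the matrix around them. Each receptor pairs 1 α subunit with 1 β subunit, and the pair decides which matrix protein is bound. RNA-Seq values were examined for 10 integrin subunit genes, 5 α (ITGA2, ITGA3, ITGA5, ITGA6 and ITGAV) and 5 β (ITGB1, ITGB3, ITGB4, ITGB5 and ITGB8). The genes were chosen by symbol, with no cutoff on their values but with earlier results of these data known. They were found as 10 of the 17649 genes in the deposited table. All 10 reached a mean of 1 CPM, the unit of the table, which is a read count scaled for library size. The study compared 4 control cultures of MDA-MB-231 cells, to which PBS was added, with 4 cultures given 1 μM carboxymethyllysine (CML) for 48 hours, both at 5 mM glucose. This established line comes from a human breast cancer, lacks the estrogen receptor and has mesenchymal features. CML is an advanced glycation end product, a modified form of lysine that builds up when sugars react with proteins. The labels number the cultures 1 to 4 in each group and do not say that they came from separate passages or days, so p values measure only the spread between these libraries, which may be technical. All cultures were of this 1 line, and no result here extends to other cells.

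The intracellular tails of most β subunits bind talin and kindlin, which switch the receptor into its active form and link it to actin, and focal adhesion kinase and Src family kinases signal from these sites. ITGB1 is the common partner, shared by many α subunits. With it, ITGA2 forms a collagen receptor, ITGA3 and ITGA6 form laminin receptors, and ITGA5 forms the main fibronectin receptor. ITGAV pairs with several β subunits and binds proteins that carry the RGD motif, such as vitronectin. ITGB3 and ITGB5 form vitronectin receptors with ITGAV, and ITGB8 with ITGAV binds latent TGF-β. ITGB4 pairs with ITGA6 alone and anchors hemidesmosomes to intermediate filaments.

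In the GRCh38.p14 annotation the α genes lie at chr5:52989352-53094779 (ITGA2), chr17:50056110-50090481 (ITGA3), chr12:54395261-54419266 (ITGA5), chr2:172427336-172506459 (ITGA6) and chr2:186590056-186680901 (ITGAV). The β genes lie at chr10:32900318-32958230 (ITGB1), chr17:47253827-47313743 (ITGB3), chr17:75721459-75757818 (ITGB4), chr3:124761948-124901418 (ITGB5) and chr7:20329766-20415754 (ITGB8). The table has 1 value per gene, so splice forms of a subunit, such as the alternative tails of ITGA6, were not separated. Whether the counting of these libraries used strand is not given in the sources used here, and reads of an overlapping gene on the other strand may be mixed in. Such genes were low for ITGB1 (ITGB1-DT, 4.39 to 5.48 CPM), ITGA6 (AC078883.1, 0.228 to 0.731 CPM) and ITGB8 (AC004130.1, 0 to 0.119 CPM).

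The libraries held between 16161794 and 18954746 estimated reads, so that 1 read was worth 0.0535 to 0.0622 CPM. Of the markers of the line, VIM (4068 CPM in control cells), AXL (1186 CPM), CD44 (832 CPM), LGALS1 (316 CPM) and CAV1 (146 CPM) were high, and CDH1 (0.74 CPM), FOXA1 and PGR (0.0148 and 0.0285 CPM) were near 0. GATA3, also listed as near 0, was present at 4.96 CPM. Of the 5 genes listed as near 0, 4 were in the table, and ESR1, which encodes the estrogen receptor, was not. SPARC, which had been listed as a high marker, went against that choice, with 0.237 CPM in control cells and 6.03 CPM in CML replicate 3 against 0.174 to 0.375 CPM in the other CML libraries. Of the leukocyte markers 3 of 5 were in the table, with summed levels of 1.42 to 3.10 CPM in control and 1.79 to 2.50 CPM in CML libraries. Of the endothelial markers 3 of 4 were in the table, with sums of 31.2 to 33.7 CPM and 29.2 to 34.3 CPM, mostly KDR, while PECAM1 and VWF stood at 3.41 and 0.372 CPM in control cells. The 5 fibroblast markers summed to 14.4 to 16.3 CPM in control and 15.4 to 18.8 CPM in CML libraries. They were COL1A1 (10.6 and 11.1 CPM in control and CML cells), PDGFRB (3.79 and 4.42 CPM), LUM (0.605 to 1.25 and 1.04 to 1.71 CPM), PDGFRA (0.104 and 0.154 CPM) and DCN (0.0300 and 0 CPM), and none passed the FDR of 0.3. The part of other cell types in the results was not tested.

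The laminin receptor gene ITGA3 and the shared subunit ITGB1 were the most abundant of the 10 genes. ITGA3 stood at 2058, 1963, 2051 and 1862 CPM in control replicates 1 to 4, and at 2003, 2041, 2032 and 1867 CPM in CML replicates 1 to 4. Its lowest value in each group was that of replicate 4, and the ranges of the groups overlapped. ITGB1 stood at 1455, 1490, 1544 and 1617 CPM in control cells and at 1524, 1543, 1554 and 1630 CPM with CML. Here replicate 4 was the highest of each group, and again the ranges overlapped. The estimated reads of ITGB1 were whole numbers within 0.05 of a read in 1 of 8 libraries only, whereas those of 8 of the other 9 genes were whole in all 8, so its reads were estimates.

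The collagen receptor gene ITGA2 was next among α subunits by CPM. It gave 702, 725, 762 and 797 CPM in control replicates 1 to 4 and 721, 725, 728 and 789 CPM with CML, with replicate 4 highest in both groups. ITGA6, the partner of both ITGB1 and ITGB4, gave 512, 538, 527 and 552 CPM in control cells and 549, 541, 561 and 579 CPM with CML. Of its CML libraries, replicates 3 and 4 lay above all controls. The fibronectin receptor gene ITGA5 gave 320, 303, 340 and 314 CPM in control cells and 317, 332, 325 and 299.9 CPM with CML, and the groups covered nearly the same range. ITGAV gave 193, 190.1, 196 and 206 CPM in control cells and 202, 208, 201 and 216 CPM with CML. Only control replicate 4 reached into the CML range.

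Among the β subunits that pair with ITGAV, ITGB5 was the most abundant after ITGB1. It gave 116, 113, 125 and 115 CPM in control cells and 122, 132, 127 and 120.5 CPM with CML, and the overlap of the groups came from control replicate 3. ITGB3 was low, at 6.32, 5.85, 6.17 and 5.76 CPM in control cells and 7.12, 7.81, 7.01 and 6.28 CPM with CML, which was 99 to 146 reads per library. In ITGB3, 3 of 4 CML libraries lay above all controls, and CML replicate 4 lay just under control replicate 1. ITGB8 was the lowest of the 10, at 1.91, 1.36, 0.968 and 0.912 CPM in control cells and 1.97, 1.71, 1.34 and 1.80 CPM with CML, from 16 to 34 reads per library. The control range covered 3 of the 4 CML libraries. The hemidesmosome subunit ITGB4 gave 126, 113, 110.1 and 101 CPM in control cells and 118, 128, 116 and 104 CPM with CML, with replicate 4 lowest in both groups.

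**Figure D1:**
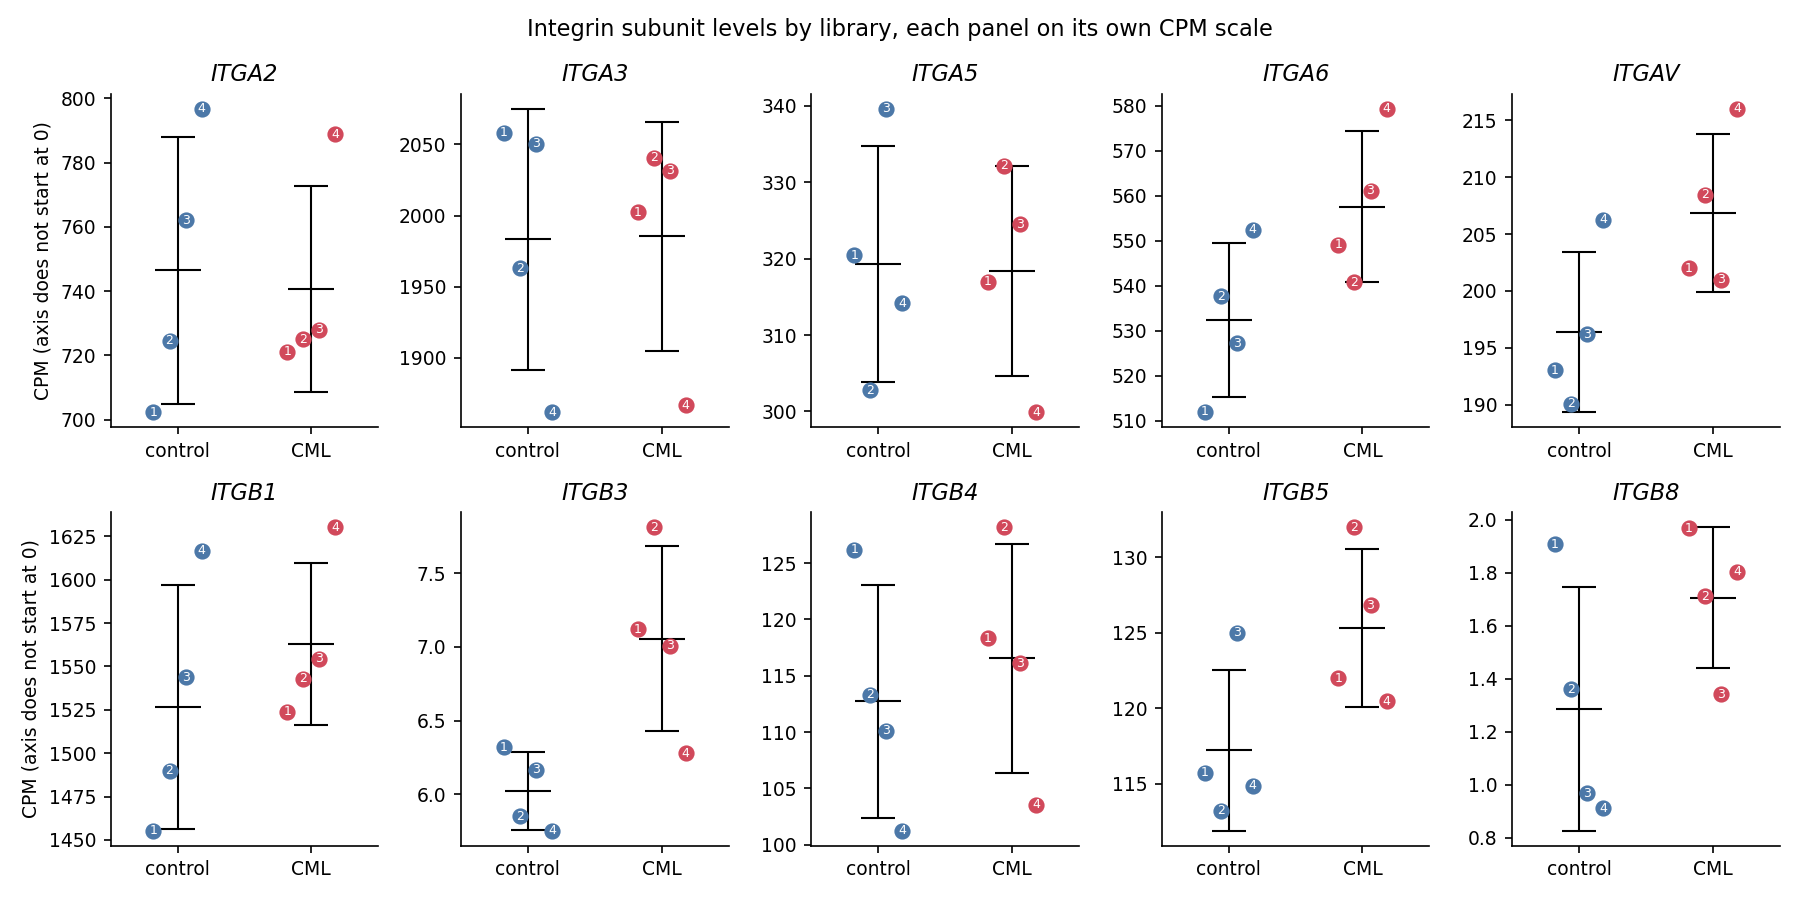
CPM of the 10 integrin subunits (vertical axes, each panel on its own scale that does not start at 0) in 4 control and 4 CML libraries. Points carry the replicate number, and bars give the mean and SD of 4 libraries; the groups overlap in every panel, ITGB3 is higher in 3 of 4 CML libraries than in any control, and replicate 4 is at the same end of both groups for ITGA2, ITGA3, ITGA6, ITGAV, ITGB1, ITGB3 and ITGB4.

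Levels of different genes were compared as CPM per kb of the canonical transcript, since longer transcripts give more reads. On this scale ITGB1 (414 ± 15.7 CPM per kb, SD, n = 8 libraries) and ITGA3 (406 ± 16.4) were not separated, with ITGB1 the higher in 3 of 8 libraries. A drop of 4.28-fold led to ITGA2 (94.8 ± 4.41) and ITGA6 (93.7 ± 3.55), which were also not separated, ITGA2 being higher in 4 of 8 libraries. ITGA5 followed at 75.0 ± 3.19, below ITGA6 in all 8 libraries. ITGAV (28.6 ± 1.22) and ITGB5 (27.3 ± 1.47) formed a further pair that was not separated, with ITGAV higher in 5 of 8 libraries. ITGB4 stood at 19.4 ± 1.64. ITGB3, at 1.10 ± 0.119, was 17.7-fold below ITGB4, and ITGB8, at 0.167 ± 0.0461, was 6.60-fold below ITGB3. The length that is assumed moves part of this order. Divided by the joined length of all annotated exons, ITGA3 came first at 202 CPM per kb and ITGB1 second at 106, and ITGAV fell from rank 6 to rank 8, while ITGA2, ITGA6, ITGA5, ITGB3 and ITGB8 kept their ranks.

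**Figure D2:**
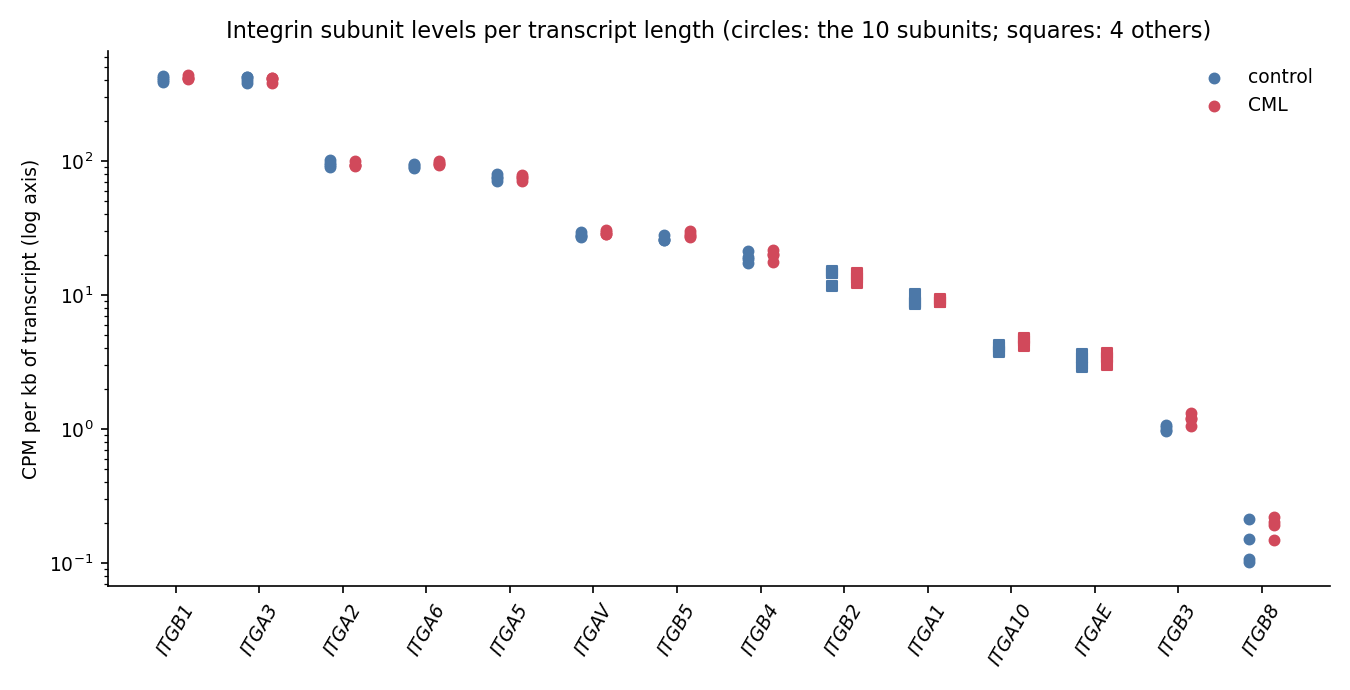
CPM per kb of canonical transcript (vertical log axis) of the 10 integrin subunits (circles) and the 4 other subunits with a mean of at least 1 CPM (squares), 1 mark for each library. ITGB1 and ITGA3 lie together near 410, ITGA2, ITGA6 and ITGA5 between 71 and 102, and ITGB8 at the far end, with control and CML marks side by side at each gene.

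As shares of the summed level per kb of the 14 α subunits in the table, ITGA3 held 57.0% ± 1.75 (SD, n = 4) in control cells and 56.6% ± 1.34 with CML. ITGA2 held 13.4% ± 0.858 and 13.2% ± 0.802, ITGA6 held 12.9% ± 0.639 and 13.4% ± 0.616, and ITGA5 held 10.6% ± 0.312 and 10.4% ± 0.272. ITGAV held 3.92% ± 0.184 and 4.10% ± 0.201. Of the summed level of the 6 β subunits, ITGB1 held 87.0% ± 1.11 and 86.9% ± 0.906, ITGB5 held 5.63% ± 0.267 and 5.87% ± 0.297, and ITGB4 held 4.09% ± 0.504 and 4.11% ± 0.415. ITGB3 made up 0.216% ± 0.0149 and 0.247% ± 0.0252 of the β total. Except for ITGB3, each of these shares differed between the groups by less than the SD of either group. With joined exon lengths the leading shares were smaller, 45.9% for ITGA3 and 71.9% for ITGB1 in control cells, but no other subunit of either kind was higher. The α total was 712 ± 15.4 CPM per kb in control cells and 718 ± 13.0 with CML, and the β total was 469 ± 16.0 and 481 ± 9.84. These are levels of transcripts, and a surplus of α over β transcripts says nothing of the receptors on the surface.

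The comparison of CML with control cells asks whether integrin transcript levels differed after exposure to the glycation product. No subunit passed the study's FDR of 0.3 (limma on log2(CPM + 1), adjusted over 17649 genes). At this threshold 0.895% of all genes were called, 119 higher and 39 lower, and no gene was called at an FDR of 0.05. At an unadjusted p under 0.05 1 of 10 subunits was counted, ITGB3, against 7.66% of all genes and 8.29% of genes at or above 1 CPM. No subunit had groups that did not overlap, against 3.78% of all genes and 4.34% of those at or above 1 CPM. The log2 fold change (CML minus control) was above 0 for 8 of 10 subunits, against 58.8% of genes with at least 1 CPM. Its median was 0.057 over the subunits and 0.015 over those genes.

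ITGB3 had the smallest p, with a log2 fold change of 0.19 (SE 0.0687, limma adjusted p = 0.553; unadjusted p of 0.0252), from 6.02 ± 0.265 to 7.06 ± 0.627 CPM (SD, n = 4). This corresponds to a rise of 14.5% with a 95% interval of 2.28% to 28.1% on the CPM + 1 scale. The expected counting error of a single library was 9.54% for this gene, and the CV was 4.39% within the control and 8.89% within the CML group. Without control replicate 2, control replicate 4, CML replicate 1 or CML replicate 2 its unadjusted limma p lay between 0.0559 and 0.0613, and its log2 fold change between 0.15 and 0.19. The p also exceeded 0.05 with only genes of at least 1 CPM in the fit, with libraries centred on their medians and with GC content and length removed. Another gene, AC068234.1, shares exons with ITGB3 on the same strand, and it was listed at 0 in 7 of 8 libraries and had 5 reads in CML replicate 4, the CML library in which ITGB3 was lowest.

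ITGB5 (117 ± 5.30 to 125 ± 5.21 CPM), ITGAV (196 ± 7.04 to 207 ± 6.96 CPM) and ITGA6 (532 ± 17.1 to 558 ± 16.7 CPM) gave small positive differences whose intervals reached 0. The log2 fold change was 0.10 for ITGB5 (SE 0.0409, limma adjusted p = 0.653), 0.07 for ITGAV (SE 0.0332, adjusted p = 0.674) and 0.07 for ITGA6 (SE 0.0306, adjusted p = 0.693). The upper 95% bounds were rises of 14.3%, 11.2% and 10.1%. Of 17 other settings, the unadjusted limma p was under 0.05 in 5 for ITGB5, 4 for ITGAV, 6 for ITGA6 and 9 for ITGB3. ITGB5 was the one of the 10 subunits called under any setting tried. With the dependence of each library on GC content and length removed, its log2 fold change was 0.09 (limma adjusted p = 0.172). In that fit 6.78% of 12928 genes were called, so 1 of 10 subunits stood near the share of all genes.

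The intervals of ITGA3, ITGA5, ITGA2 and ITGB1 lay on both sides of 0. For ITGA3 (1983 ± 91.8 and 1985 ± 80.8 CPM) the log2 fold change was 0.0017, with a 95% interval from a fall of 7.12% to a rise of 7.91%, and its sign depended on the scaling: it was −0.02 with libraries centred on their medians and −0.01 with quantile normalization. For ITGA5 (319 ± 15.4 and 318 ± 13.8 CPM) it was −0.0037, between −7.19% and 7.20%. For ITGA2 (746 ± 41.7 and 741 ± 32.2 CPM) it was −0.01, between −8.21% and 7.39%. For ITGB1 (1526 ± 70.4 and 1563 ± 46.7 CPM) it was 0.03, between −4.01% and 9.31%. The limma adjusted p of ITGA2, ITGA3 and ITGA5 was 1, and that of ITGB1 was 0.930. None of these 4 intervals reached a change of 10%.

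The remaining 2 subunits had wider intervals. ITGB4 (113 ± 10.3 and 117 ± 10.1 CPM) had a log2 fold change of 0.05, between −9.94% and 18.7% (limma adjusted p = 0.985). ITGB8 (1.29 ± 0.460 and 1.71 ± 0.266 CPM) had the largest log2 fold change, 0.26 (SE 0.148), but its interval ran from −6.09% to 52.4% (limma adjusted p = 0.787). These percents are on the CPM + 1 scale, where the added 1 makes the change and interval of so low a gene smaller. With 16 to 34 reads per library the counting error of ITGB8 was 20.6%, and its CV was 35.7% within the control and 15.6% within the CML group. Its log2 fold change moved from 0.26 to 0.42 (SE 0.246) with a pseudocount of 0.1. It was 0.38 without control replicate 1 and 0.16 without both libraries numbered 4, and no limma adjusted p was under 0.521.

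**Figure D3:**
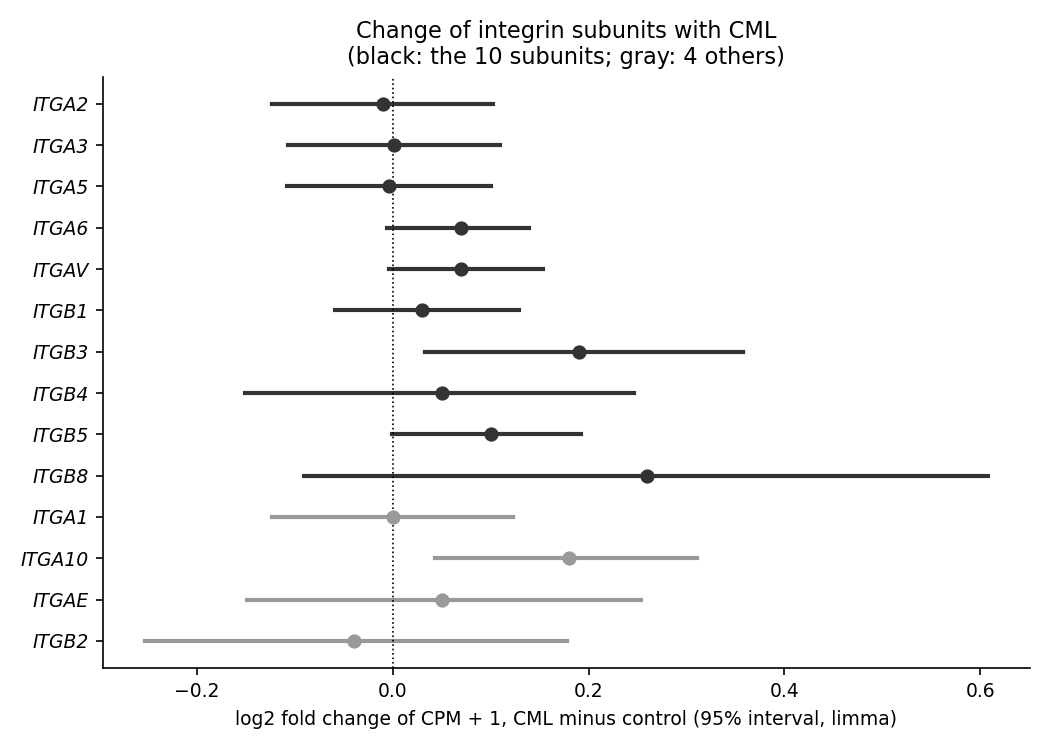
Log2 fold change of CPM + 1, CML minus control (horizontal axis), with the 95% interval of the limma fit, for the 10 integrin subunits (black) and 4 other subunits (gray). Intervals of ITGB3 (0.03 to 0.36) and ITGA10 (0.04 to 0.31) lie above 0 before adjustment, and those of ITGA2, ITGA3 and ITGA5 are centered near 0.

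Since subunits act in pairs, 9 ratios of known partners were compared within libraries, a measure that depends little on how a library was scaled. None passed the FDR of 0.3 by a 2-sided exact permutation test over the 70 labellings of the 8 libraries, whose smallest possible p is 0.0286, and all groups overlapped. The smallest p was that of ITGA2 to ITGB1, with a log2 ratio of −1.03 ± 0.0156 in control and −1.08 ± 0.0210 in CML libraries (n = 4, exact p = 0.0571, adjusted p = 0.514 over 9 ratios). In 3 CML libraries this ratio was −1.08 to −1.09, under all controls, and in CML replicate 4 it was −1.05. ITGAV to ITGB1 went from −2.95 ± 0.0291 to −2.91 ± 0.0257 (n = 4, exact p = 0.114, adjusted p = 0.514). ITGAV to ITGB3 went from 4.81 ± 0.0898 to 4.69 ± 0.142 (n = 4, exact p = 0.229, adjusted p = 0.514). For the laminin receptor pairs, ITGA3 to ITGB1 had means of 0.378 and 0.345, with 0.203 and 0.195 in the replicates numbered 4 (n = 4, exact p = 0.486, adjusted p = 0.729), and ITGA6 to ITGB1 was −1.52 ± 0.0382 and −1.49 ± 0.0198 (n = 4, exact p = 0.229, adjusted p = 0.514). The fibronectin receptor pair, ITGA5 to ITGB1, had means of −2.25 (−2.36 to −2.18) and −2.29 (−2.44 to −2.21) (n = 4, exact p = 0.657, adjusted p = 0.771). ITGAV to ITGB5 was 0.740 ± 0.0787 and 0.719 ± 0.0848, and ITGAV to ITGB8 was 6.45 ± 0.316 and 6.27 ± 0.137 (n = 4, exact p = 0.686 and 0.286). The hemidesmosome pair, ITGA6 to ITGB4, was 2.23 ± 0.174 and 2.25 ± 0.168 (n = 4, exact p = 0.771, adjusted p = 0.771). Without control replicate 1, 3 ratios passed the FDR of 0.3 (ITGA2 to ITGB1, ITGAV to ITGB1 and ITGAV to ITGB8, exact adjusted p = 0.257 each), and without CML replicate 4, 2 passed (ITGA2 to ITGB1 and ITGAV to ITGB3, exact adjusted p = 0.257 each).

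In the libraries numbered 4, which were singled out after their values were seen, the subunits stood above or below the other libraries of their group according to their GC content. In both libraries these deviations were larger than the difference between the groups for 7 of 10 subunits, all but ITGB3, ITGB5 and ITGB8. In control replicate 4, ITGA2 was 0.13 above the mean of control replicates 1 to 3 on the log2 scale, ITGB1 0.11, ITGAV 0.09 and ITGA6 0.07, and these transcripts have GC contents of 38.3% to 42.5%. ITGB4 was 0.20 below, ITGA3 0.12, ITGB3 0.07, ITGB5 0.04 and ITGA5 0.03 below, and these have GC contents of 49.7% to 63.6%. The exception was ITGB8, which has a GC content of 38.7% and was 0.32 below, at 16 reads. In CML replicate 4 all 5 subunits with GC content under 45% were above the other CML libraries, by 0.07 to 0.12, and all 5 at 45% or more were below, by 0.07 to 0.22. Across the 10 subunits Pearson's r of the deviation with GC content was −0.413 in control and −0.892 in CML replicate 4 (Spearman's rho −0.442 and −0.842). It was −0.552 and −0.460 across 12928 genes with at least 1 CPM. Genes of 1 library share its preparation and are not independent replicates, so no p is given.

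The same libraries had the lowest α to β balance. The summed α to β level per kb was 1.43 in control replicate 4 and 1.41 in CML replicate 4, and 1.51 to 1.58 in the other 6 libraries. After the dependence on GC content and length was removed, the deviations of ITGA3, ITGB1, ITGA6 and ITGAV in replicate 4 lay between −0.03 and 0.03 in both groups. Those of ITGA2, ITGA5, ITGB4 and ITGB5 lay between −0.06 and 0.05, with the largest for ITGB4 and ITGA2 in CML replicate 4. Those of ITGB3 were −0.13 in control and −0.20 in CML replicate 4, and that of ITGB8 in control replicate 4 was −0.44. With both libraries numbered 4 left out, no subunit passed the FDR of 0.3, and 3 had an unadjusted limma p under 0.05 (ITGAV, ITGB3 and ITGA6), against 1.82% and 9.82% of all genes. The part of GC content in these differences was not tested beyond this correction.

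**Figure D4:**
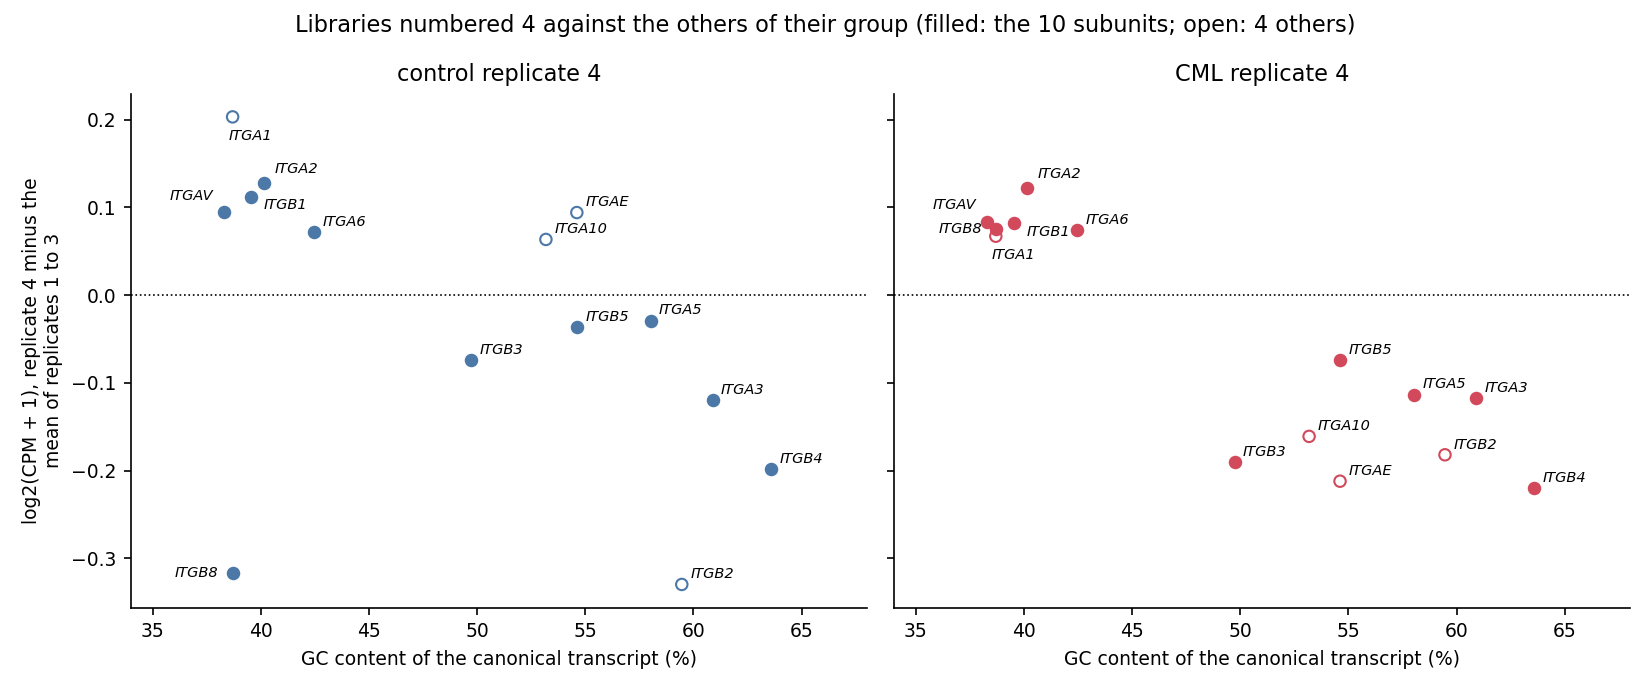
Deviation of replicate 4 from the mean of replicates 1 to 3 of its group (vertical axes, log2 of CPM + 1) against GC content of the canonical transcript (horizontal axes, percent), in control (left) and CML (right) cells, for the 10 integrin subunits (filled) and 4 others (open). Subunits under 45% GC lie above 0 and those over 45% below 0 in both panels, except for ITGB8 in control replicate 4, and, among the open circles, ITGA10 and ITGAE in control replicate 4.

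Of 16 other integrin subunits, 10 were in the table and 4 had a mean of at least 1 CPM. ITGA1, a second collagen receptor subunit that lies 30142 bases from ITGA2 on chromosome 5, gave 97.4 ± 7.33 CPM in control and 97.2 ± 2.56 CPM in CML cells. Its values are uncertain because PELO lies within it, at 75.1 to 83.5 CPM, and the ITGA1 reads were whole numbers in only 1 of 8 libraries. The leukocyte subunit ITGB2 gave 39.3 ± 4.40 and 38.2 ± 2.72 CPM while the 3 leukocyte markers in the table summed to at most 3.10 CPM, and ITGB2-AS1 overlaps it on the other strand at 4.54 to 6.21 CPM. ITGAE, the α subunit known from T cells in epithelia, gave 12.3 ± 1.20 and 12.8 ± 1.08 CPM. Its values are uncertain too, because HASPIN shares exons with it on the other strand, at 7.68 to 9.52 CPM. ITGA10, a collagen receptor subunit of cartilage, gave 19.7, 19.2, 21.7 and 21.1 CPM in control and 24.0, 24.3, 23.2 and 21.2 CPM in CML cells. In 3 CML libraries it lay above all controls, with a log2 fold change of 0.18 (SE 0.0565, limma adjusted p = 0.489). None of the 4 passed the FDR of 0.3. With GC content and length removed ITGA10 did (log2 fold change 0.17, limma adjusted p = 0.190, and 0.234 with a term for the replicate number as well). In these fits 6.78% and 7.37% of 12928 genes were called. ITGA2B, ITGA4, ITGA7, ITGA9, ITGA11 and ITGAX had means under 1 CPM in both groups, and ITGA8, ITGAD, ITGAL, ITGAM, ITGB6 and ITGB7 were not analysed here.

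Genes around the subunits were taken from 6 lists, of matrix ligands, activators and tail-binding adaptors, kinases and signaling adaptors, membrane partners, trafficking and hemidesmosomes. The lists held 138 genes, of which 133 were in the table and 122 had a mean of at least 1 CPM. Of these 122, 3 passed the FDR of 0.3, all higher with CML and all matrix ligands. The share called higher was 0.828% of genes with at least 1 CPM and 0.674% of all genes. At an unadjusted p under 0.05, 13 of the 122 were counted, against 8.29% of genes of that level. The log2 fold change was above 0 for 90 of 122, against 58.8%, with a median of 0.031. The lists were compiled with results of these libraries known, so the counts are a description.

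The 3 were secreted proteins that integrins bind. CCN2, a matricellular protein bound by ITGAV and ITGB1 receptors, rose from 259.9, 260.1, 255 and 268 CPM in control cells to 296, 294, 302 and 301 CPM with CML. Its log2 fold change was 0.19 (SE 0.0176, limma adjusted p = 0.0604). THBS1, thrombospondin 1, rose from 295, 311, 317 and 317 CPM to 352, 349.6, 350.0 and 355 CPM. Its log2 fold change was 0.18 (SE 0.0247, limma adjusted p = 0.0980). CCN1, a relative of CCN2, rose from 824, 824, 818 and 813 CPM to 882, 896, 905 and 857 CPM. Its log2 fold change was 0.11 (SE 0.0199, limma adjusted p = 0.189). In all 3 the groups did not overlap, which is likely for genes picked by their p, and those of every integrin subunit did overlap. Of 23 matrix ligands with at least 1 CPM, only these 3 had CML values all above the controls. The share was 3.04% of genes of that level and 2.5% of all genes. THBS1 shares exons with FSIP1 on the other strand. The log2 fold changes of CCN2 and THBS1 were similar in size to that of ITGB3 (0.19), which had an SE of 0.0687. Without CML replicate 2 the limma adjusted p of THBS1 was 0.340, and CCN1 lost its call with libraries centred or quantile normalized and without control replicate 1, 2 or 3 or CML replicate 1, 2 or 3 (limma adjusted p of 0.339 to 0.453).

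In the other lists no gene passed the FDR of 0.3. With GC content and length removed, 23 genes of the 6 lists did, of 122 tested, against 6.78% of the 12928 genes in that fit. They were 7 matrix ligands, 5 activators and tail-binding adaptors (FERMT1 and TNS3 among them), 2 kinases and signaling adaptors (BCAR3 and PTPN11), 4 membrane partners (SDC4, CAV1, CD82 and CD151), 4 trafficking genes (PPFIA1 and EPS8 among them) and 2 hemidesmosome genes (DST and CD151, the latter in both lists). The adjusted p values that follow are those without this correction. Of 30 activators and tail-binding adaptors with at least 1 CPM, 2 had an unadjusted p under 0.05, against 8.29% of genes of that level. FERMT1, a kindlin that binds β tails, stood at 28.6 ± 0.996 CPM in control and 32.3 ± 2.73 CPM in CML cells (limma adjusted p = 0.553). ILK, a scaffold at the same tails, stood at 229 ± 6.64 and 239 ± 4.92 CPM (limma adjusted p = 0.609), and TNS3, a tensin, at 195 ± 4.62 and 205 ± 8.59 CPM (limma adjusted p = 0.720). TAF10 shares exons with ILK on the other strand.

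Of 30 kinases and signaling adaptors with at least 1 CPM, 2 had an unadjusted p under 0.05, against 8.29% of genes of that level. BCAR3, an adaptor that binds p130Cas, stood at 136 ± 5.81 and 150 ± 6.24 CPM (limma adjusted p = 0.426). ARHGEF7, a Rac and Cdc42 exchange factor, was lower in all 4 CML libraries than in any control, at 58.3 ± 0.597 and 55.0 ± 2.41 CPM (limma adjusted p = 0.593). Groups that did not overlap, in either direction, made up 4.34% of genes with at least 1 CPM. PTPN11, a phosphatase, stood at 411 ± 17.4 and 433 ± 9.72 CPM (limma adjusted p = 0.652). RPL6 shares exons with PTPN11, and ARHGEF7-AS2 with ARHGEF7, on the other strand.

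Of 16 membrane partners 3 had an unadjusted p under 0.05, against 8.29% of genes with at least 1 CPM. Each of these 3, picked by p, was higher in all 4 CML libraries than in any control, as was PPFIA1 of the trafficking list. Of genes with at least 1 CPM, 3.04% had groups that did not overlap with CML higher. SDC4, a syndecan that acts with fibronectin receptors, stood at 172 ± 2.31 and 182 ± 4.62 CPM (limma adjusted p = 0.382). CAV1, the coat protein of caveolae, stood at 146 ± 6.09 and 159 ± 5.45 CPM (limma adjusted p = 0.458), and CD82, a tetraspanin, at 83.0 ± 4.13 and 90.3 ± 2.19 CPM (limma adjusted p = 0.489). Of 20 trafficking genes 3 had an unadjusted p under 0.05, against the same 8.29%. They were PPFIA1 (137 ± 2.38 and 144 ± 2.92 CPM, limma adjusted p = 0.381), EPS8 (41.3 ± 2.26 and 45.8 ± 1.55 CPM, limma adjusted p = 0.458) and HPS6 (21.0 ± 0.944 and 23.3 ± 0.959 CPM, limma adjusted p = 0.468). None of the 4 hemidesmosome genes in the table had an unadjusted p under 0.05. DST, which links ITGB4 to keratins, stood at 405 ± 25.7 and 430.2 ± 18.1 CPM (limma adjusted p = 0.793), CD151, the tetraspanin partner of laminin receptors, at 240.2 ± 18.4 and 256 ± 14.7 CPM (limma adjusted p = 0.864), and COL17A1, a hemidesmosomal collagen, at 5.35 ± 0.658 and 5.46 ± 0.435 CPM (limma adjusted p = 1). POLR2L shares exons with CD151 on the other strand.

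**Figure D5:**
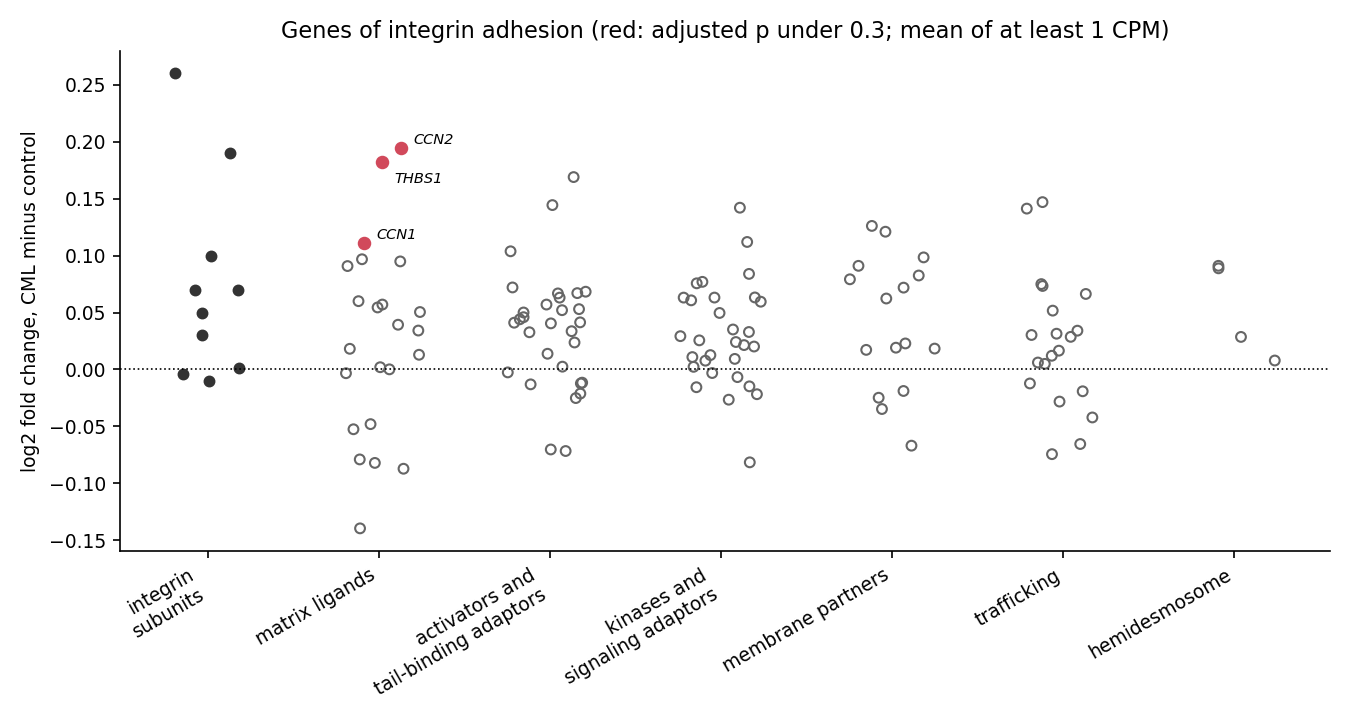
Log2 fold change, CML minus control (vertical axis), of the 10 integrin subunits and of the genes of 6 adhesion lists with a mean of at least 1 CPM, 1 mark for each gene (spread sideways at random). Red marks passed the FDR of 0.3, and they are CCN2 (0.19), THBS1 (0.18) and CCN1 (0.11) among the matrix ligands; no subunit and no gene of the other 5 lists is red.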

How the data were processed

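RNA-Seq values were taken for 4 control and 4 CML libraries, grouped by the sample titles. The authors deposited 1 table of CPM, with 17681 rows and columns that sum to between 986730 and 1014124. The submitters' processing notes name edgeR and hg38; the study's methods describe, for its tumors, a stranded kit and Tophat alignment to another build (hg19). For this experiment the aligner, the counting tool, its use of strand and the annotation are not given in the sources used here. Both NextSeq and HiSeq machines appear in the labels, and the study's methods name HiSeq for this experiment. Dividing by the CPM of 1 read gave whole reads (within 0.02) for 85.2% to 86.1% of values, so no count test was run and reads are estimates.

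Rows of a symbol were averaged (32 symbols; 17649 genes), 764 rows being at 0 throughout. log2(CPM + 1) was fitted with limma (version 3.58.1, R 4.3.3) with a variance trend. P values were adjusted by Benjamini-Hochberg over the whole table and read at the FDR of 0.3 of the study's heatmap and at 0.05. Ratios were tested by exact permutation. The code was tested on simulated data. Transcript lengths, GC content and overlapping genes came from GENCODE 44 mapped to GRCh37, and positions from RefSeq GRCh38.p14. Named genes were all 10 subunits, other subunits with at least 1 CPM, markers, and from each list the called genes or else the 3 with the smallest p. The overlapping genes were named after their values were seen. Members, lists and rule were chosen with earlier results of these data known. The alternative settings were median centring, a filter at 1 CPM, a smaller pseudocount (0.1), quantile normalization, no variance trend, the replicate number as a block, removal of GC and length dependence, and each library left out.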

Additional observations from a re-analysis of the deposited data

Results flagged for a closer look

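Of 48 groups of 4 libraries tested with Dixon's criterion, 5 held a library that stood apart at the 95% level. Chance gives about 1 in 20 for independent groups. These groups share libraries, and the ratios reuse the values of the subunits, so the count cannot be read against that rate. ITGA2 stood at 788.8 CPM in CML replicate 4, above 721.1 to 728.0 CPM in the other CML libraries. The log2 ratio of ITGA3 to ITGB1 was 0.1952 in CML replicate 4, below 0.3861 to 0.403 in the others. ITGB2 stood at 32.83 CPM in control replicate 4, below 40.97 to 42.51 CPM in the other controls. The log2 ratio of ITGAV to ITGB1 was −2.908 in control replicate 1, above −2.97 to −2.964 in the others. Control replicate 4 had 1.773e+07 estimated reads, above 1.656e+07 to 1.669e+07 in the other controls. Of the 5, 4 were libraries numbered 4.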

How the results depend on the processing

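None of the 10 subunits was called at the FDR of 0.3 under any alternative, the 8 fits without 1 library and the fit without both libraries numbered 4 included, except ITGB5 with GC content and length removed (log2 fold change 0.09; 1 subunit, limma adjusted p = 0.172, or 0.160 with the replicate block as well). Of the 4 other subunits, ITGA10 was called in the same 2 fits, where 6.78% and 7.37% of 12928 genes were called. Of 170 values of subunits under alternatives, 16 changed sign and 152 kept both direction and side of the threshold. ITGA3 went from 0.0017 to −0.02 with libraries centred on their median, to −0.01 with quantile normalization and to −0.0037 with GC content and length removed, with or without the replicate block, and ITGA5 went from −0.0037 to 0.02 without both libraries numbered 4. Without 1 library, the log2 fold change ranged from −0.04 to 0.02 for ITGA2, −0.03 to 0.03 for ITGA3, −0.03 to 0.03 for ITGA5 and −0.0017 to 0.10 for ITGB4. Subunits with an unadjusted p under 0.05 numbered 1 as reported, 0 with centring and 3 with the replicate block. They numbered 2 with GC content and length removed (2 with the block too). Their number was 3 without both libraries numbered 4 and 0 to 2 without 1 library. The share of the genes tested in each fit was 6.71% to 12.3% over these fits.

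Over all 17649 genes, 158 were called (75.3% higher), 73 with centring (63.0% higher) and 144 with quantile normalization (62.5% higher). With GC content and length removed, 877 of the 12928 genes in that fit were called (62.8% higher). With the replicate block as well, 953 were called (63.3% higher). Library medians differed from their mean by at most 0.021 on the log2 scale, but in part by group. They were 4.831 to 4.837 in the controls and 4.853 to 4.865 in CML replicates 1 to 3. In CML replicate 4 the median was 4.836. Without both libraries numbered 4, a choice made after seeing the data, 321 were called. Without 1 library the count was 91, 45, 72 and 690 for control replicates 1 to 4 and 76, 20, 44 and 105 for CML replicates 1 to 4, the range being 20 to 690. The replicate block gave 189 (a change of under 1.5 times). Deviations of same-numbered libraries correlated at 0.199, −0.0303, −0.0645 and 0.334 for numbers 1 to 4 (mean 0.11, different numbers −0.0362). Those of numbers 4 and 1 were the highest of all pairs of a control and a CML library. The labels only number the cultures, so the main fit did not pair them, and whether they were paired is not known. With the replicate block, ITGA6, ITGAV and ITGB3 had an unadjusted limma p under 0.05.

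Of the adhesion lists 3 of 133 genes were called (0.895% of all genes), and 5 with the replicate block (CAV1 and PPFIA1 added, 1.07% of all genes). With GC content and length removed, 23 of 122 were called (20 higher and 3 lower), against 6.78% of the 12928 genes in that fit. With the block too, 23 were called, against 7.37%. Without both libraries numbered 4 there were 6 (1.82% of all genes). Without 1 library there were 1 (CML replicate 2, 0.113%) to 13 (control replicate 4, 3.91%). These recounts were added after seeing the data. Of the ratios, 0 were called, and 0 to 3 without 1 library. The cause of these changes was not tested. The counting error of a library was 20.6% for ITGB8 and 9.54% for ITGB3 and at most 2.27% for the other 8 subunits.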
